A study of Mus musculus with 9 samples.

Results

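The C/EBP proteins Cebpa, Cebpb, Cebpd and Cebpg and the Runt factors Runx1 and Runx2 were chosen as transcription factors of luteinisation, and every probe set whose only annotated gene symbol was one of these names was read on all 9 arrays. This gave 14 probe sets of 45037 tested, and 5 genes of the 6 asked for, among 18193 genes in all. Cebpa had 1 probe set, Cebpb 2, Cebpd 2, Cebpg 3 and Runx1 6. Runx2 is not analysed here. The arrays measured RNA of mouse granulosa cells, the somatic cells that surround the oocyte, from females aged 20 to 26 days whose follicles had been stimulated for 48 h with eCG (equine chorionic gonadotrophin). The cells attached overnight in medium with 1% serum and were then infected in serum-free medium for 24 h with an adenovirus made to overexpress WNT4, to express Cre recombinase or to express enhanced GFP, the control virus. Each virus had 3 arrays, and the nominal multiplicity of infection was about 50. The mice are described only as being of several genotypes, among them carriers of floxed Ctnnb1 (the gene of beta-catenin), so the genotype of each group is not stated. The labels call the replicates biological without naming separate animals or cultures, and p-values then measure only the spread between these samples.

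C/EBP proteins are basic leucine zipper factors that bind DNA as dimers. In the mouse ovary the luteinising hormone surge acts through EGF-like factors and the kinases ERK1 and ERK2 to raise C/EBP-beta, and mice that lack C/EBP-alpha and C/EBP-beta in granulosa cells do not form normal corpora lutea. C/EBP-gamma has no strong activation domain of its own and pairs with other C/EBP proteins and with ATF4. RUNX proteins bind DNA together with the partner CBF-beta. In rodents Runx1 and Runx2 are induced in granulosa cells around ovulation, and Runx1 also supports granulosa identity in the fetal mouse ovary.

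The promoters of the 3 C/EBP genes that stood furthest above GFP on the WNT4-labelled arrays relative to their error are shown because the cAMP response elements of the Cebpb promoter are a known entry point for gonadotrophin signals. They are the 250 bases before the RefSeq start site in build GRCm38.p6, at chr2:167688665-167688914 on the plus strand for Cebpb, chr7:35119043-35119292 on the plus strand for Cebpa and chr7:35056567-35056816 on the minus strand for Cebpg. Capitals mark every match, on either strand, to 6 motifs: TGACG (a cAMP response element half-site), TTNNGNAA (a C/EBP site), TGATGNAA (a composite site of ATF4 and C/EBP), TGTGGT (a RUNX site), CCAAT (the box of that name) and TATAAA (the sequence bound by the basal factor TBP). No 2 of the matches shown overlap.
Cebpb: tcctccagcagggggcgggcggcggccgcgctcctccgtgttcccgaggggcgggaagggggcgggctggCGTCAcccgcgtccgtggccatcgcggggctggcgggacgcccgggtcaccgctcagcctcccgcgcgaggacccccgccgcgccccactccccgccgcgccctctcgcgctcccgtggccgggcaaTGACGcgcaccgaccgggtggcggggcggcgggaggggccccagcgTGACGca
Cebpa: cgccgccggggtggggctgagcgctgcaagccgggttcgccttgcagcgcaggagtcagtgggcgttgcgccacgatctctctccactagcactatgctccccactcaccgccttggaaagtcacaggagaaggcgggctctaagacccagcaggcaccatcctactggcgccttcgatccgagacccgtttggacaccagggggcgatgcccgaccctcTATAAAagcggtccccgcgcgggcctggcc
Cebpg: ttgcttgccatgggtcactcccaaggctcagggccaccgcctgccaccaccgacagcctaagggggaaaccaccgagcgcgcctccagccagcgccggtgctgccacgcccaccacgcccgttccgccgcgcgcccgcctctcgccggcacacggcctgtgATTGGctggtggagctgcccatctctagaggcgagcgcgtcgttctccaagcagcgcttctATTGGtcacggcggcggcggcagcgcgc
Cebpb held 3 matches to TGACG, of which the 2 on the plus strand began 53 and 7 bases before the start. TGACG was present in 17.8% of the 32851 mouse promoter windows of the same length. Cebpa held 1 TATAAA, beginning 30 bases before the start, a motif present in 12.4% of the windows. Cebpg held 2 CCAAT matches, both on the minus strand, against 33.8% of windows with at least 1, and each of the 2 Runx1 start sites also held 2 CCAAT matches. None of the Cebpa, Cebpb, Cebpg and Runx1 windows held TTNNGNAA, TGATGNAA or TGTGGT, which were present in 36.8%, 3.45% and 14.0% of all windows. A match describes the letters of the window and is no evidence of binding.

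The deposited log2 values had array medians of 5.44 to 5.54. Of 13 granulosa markers measured, Inha, an inhibin subunit, read 12.9 to 14.0 on the 9 arrays, Fst, an activin-binding protein, 12.1 to 12.7, and Foxl2, which maintains granulosa identity, 10.1 to 10.7. In WNT4 against GFP 1 of the 13 was higher and 2 lower at an unadjusted p under 0.05: Nr5a1, the steroidogenic factor SF-1, by 0.38 ± 0.11, Foxl2 by -0.32 ± 0.11 and Esr2, oestrogen receptor beta, by -1.25 ± 0.36. In Cre against GFP 0 were higher and 2 lower, Foxl2 by -0.28 ± 0.11 and Amh by -0.20 ± 0.09, and none of these was called by limma. Amh, the anti-Müllerian hormone of growing follicles, read only 5.84 to 6.23, close to the array medians. The targeted genes did not settle the labels: Wnt4 averaged 9.34 on the WNT4-labelled arrays, 10.63 on the Cre-labelled arrays and 9.41 on the GFP arrays at 1 probe set, and 9.29 with WNT4, 9.62 with Cre and 8.32 with GFP at the other (WNT4 minus GFP 0.97 ± 0.49, adjusted p = 0.447). Cre minus GFP was larger, at 1.23 ± 0.34 for the first Wnt4 probe set and 1.30 ± 0.49 for the other. For the first, WNT4 minus GFP was -0.07 ± 0.34 and WNT4 minus Cre -1.30 ± 0.34 (limma adjusted p = 0.773). Every WNT4-labelled array read below every Cre-labelled array there. The 3 Ctnnb1 probe sets were not lower on Cre-labelled arrays than on GFP arrays (differences of 0.04, 0.10 and 0.20). Whether these probe sets lie in the viral transcript or in the deleted part is not known here, so each direction below belongs to the arrays as labelled. WNT4 1 (the WNT4-labelled array numbered 1) stood apart, with the highest 3' minus 5' difference of control probe sets for beta-actin (1.38, against 0.98 to 1.30 on the others) and Gapdh (2.17, against 0.95 to 1.88). The mean of 10 oocyte markers was also highest there, at 8.18, against 6.36 to 7.60 on the other arrays. All 10 oocyte markers averaged higher with WNT4 than with GFP, with a median difference of 0.53, and 9 of 10 higher with Cre than with GFP, with a median of 0.41, with 0 at an unadjusted p under 0.05 in either comparison. The mean of 12 theca, stroma and muscle markers was 6.68 to 7.63 with WNT4, 6.86 to 7.40 with Cre and 6.71 to 7.61 with GFP. Within that list the stromal genes Dcn (9.50, against 6.41 to 7.10 on the other arrays), Lum (7.33, against 4.65 to 4.91) and Pdgfra (8.16, against 5.67 to 6.64) were highest on WNT4 1. Cyp17a1 (5.86), Col3a1 (10.23) and Postn (6.24) were also highest there, whereas Acta2 (10.81), Tagln (8.53), Col1a1 (5.73) and Ogn (4.75) were lowest there. Ogn was lower with WNT4 than with GFP by -2.58 ± 0.77, the 1 of 12 at an unadjusted p under 0.05. The mean of 9 endothelial markers was 5.42 to 5.70 with WNT4, 5.32 to 5.48 with Cre and 5.33 to 5.51 with GFP.

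The C/EBP genes read higher on the WNT4-labelled arrays than on the GFP arrays, and Runx1 gave a mixed picture. All 8 C/EBP probe sets had a positive difference, from 0.23 to 1.18 on the log2 scale (1.17-fold to 2.26-fold). The 6 Runx1 probe sets ran from -0.21 to 0.83. At 7 of the 8 C/EBP probe sets, namely those of Cebpa, Cebpb and Cebpg and the brighter one of Cebpd, the highest of the 9 arrays was WNT4 1. That array also had the highest 3' minus 5' differences and oocyte marker mean, and stromal and muscle markers at either end of their ranges. Without WNT4 1 the 8 differences from GFP were positive, but those at the 7 probe sets where it was highest were smaller. At Cebpg 1425262_at the difference was then 0.42, from 0.70 with all arrays, and at Cebpd 1423233_at 0.54, from 0.82. The part of RNA quality or of other cells in the C/EBP values was not tested. No member passed limma's test across all probe sets, in which 7 of 45037 (0.0155%) were called at an adjusted p under 0.05, and the lowest adjusted p of a member was 0.165. At an unadjusted p under 0.05, 9 of the 14 probe sets were higher and 0 lower, with each of the 5 genes represented, against 9.12% higher and 3.91% lower among all probe sets. Most members were not dim, and brighter probe sets in general read higher with WNT4. With probe sets of a mean under 6 left out, 16.8% of 18658 were higher at that p, the median of all differences was 0.16, and 8 members were higher. All 3 WNT4-labelled arrays lay above all 3 GFP arrays at 8 of the 14 and wholly below them at 0, against 9.28% and 5.49% of all probe sets. Probe sets of 1 gene share that gene as their target and are not independent, and the genes were chosen with earlier results of these data known. The unadjusted count of higher members changed with the scaling and with the arrays used. It was 10 after median centring (10.6% of all probe sets higher), 8 after quantile normalization (4.61%) and 7 after centring on the 75th percentile (4.57%). Without the 3 arrays numbered 3, 5 members had such a p and 4 of them were higher (8.35%). Of all probe sets at that p, 70.0% were higher with WNT4 than with GFP as deposited, 48.0% with quantile normalization, 30.1% with the 75th percentile aligned and 80.1% with the medians aligned.

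**Figure D1:**
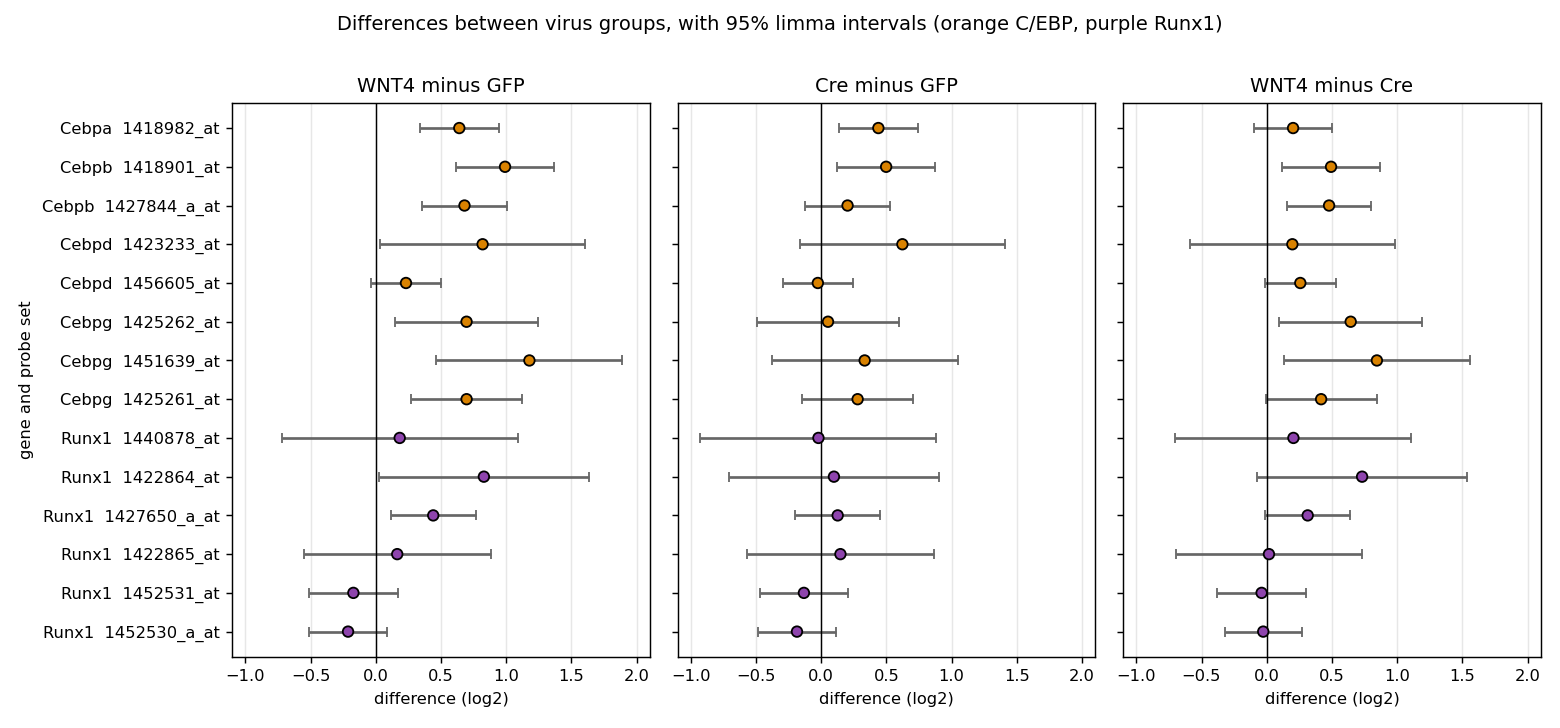
Differences between virus groups on the log2 scale for the 14 probe sets of Cebpa, Cebpb, Cebpd, Cebpg (orange) and Runx1 (purple), as WNT4 minus GFP, Cre minus GFP and WNT4 minus Cre. Points are limma estimates over 3 arrays per group and bars are 95% intervals. The 8 C/EBP points of WNT4 minus GFP all lie right of 0, from 0.23 to 1.18, and the Runx1 points lie on both sides.

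Cebpb encodes C/EBP-beta, the member induced by luteinising hormone. Its brighter probe set, 1418901_at, read 10.37, 9.93 and 10.24 on the WNT4-labelled arrays, 9.62, 9.45 and 10.00 on the Cre-labelled arrays and 9.13, 9.09 and 9.35 on the GFP arrays. The lowest value of either labelled virus, 9.45 on Cre 2, was above the highest GFP value, and Cre 3 overlapped the WNT4-labelled range. The means were 10.18 ± 0.23 with WNT4, 9.69 ± 0.28 with Cre and 9.19 ± 0.14 with GFP (SD, n = 3 each). The difference of WNT4 from GFP was 0.99 ± 0.17 (SE), or 1.99-fold, with a limma adjusted p of 0.165, and Cre minus GFP was 0.50 ± 0.17, or 1.41-fold, with an adjusted p of 1. The other probe set, 1427844_a_at, read 7.28, 7.23 and 6.98 with WNT4, 6.70, 6.56 and 6.80 with Cre and 6.29, 6.41 and 6.76 with GFP. Here too every WNT4-labelled array was above every GFP array, while the Cre-labelled and GFP arrays overlapped. Its differences from GFP were 0.68 ± 0.14 for WNT4 and 0.20 ± 0.14 for Cre. The 2 Cebpb probe sets thus pointed the same way for each virus, with a smaller difference at the dimmer one.

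Cebpa encodes C/EBP-alpha, which acts with C/EBP-beta in the luteinising follicle. Its single probe set, 1418982_at, read 7.64, 7.22 and 7.30 with WNT4, 7.28, 7.10 and 7.17 with Cre and 6.69, 6.62 and 6.93 with GFP. Both labelled viruses lay wholly above GFP, and they overlapped each other. WNT4 minus GFP was 0.64 ± 0.13, or 1.56-fold, with an adjusted p of 0.172, and Cre minus GFP was 0.44 ± 0.13, or 1.35-fold, with an adjusted p of 1. Cebpa and Cebpb 1418901_at were the members with the lowest unadjusted p in Cre against GFP, where 0 of 45037 probe sets (0%) were called by limma. At an unadjusted p under 0.05, those 2 of 14 were higher and 0 lower in Cre against GFP, with 1.01% of all probe sets higher and 1.22% lower. The share of higher ones at that p was 45.2% over all probe sets, and 63.7% after median centring. Without Cre 3, or without GFP 2, 1 of 14 was higher at that p (0.773% and 0.571% of all probe sets). Complete separation above GFP was seen at 3 of 14 and below GFP at 0, against 2.98% and 3.04% of all probe sets, the last of the 3 being a Cebpg probe set. Both comparisons use the same GFP arrays, so their values are not independent of each other.

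Cebpd encodes C/EBP-delta, a factor of acute-phase and differentiation responses. Its brighter probe set, 1423233_at, read 8.35, 7.04 and 7.98 with WNT4, 7.58, 7.14 and 8.06 with Cre and 6.79, 6.79 and 7.34 with GFP. The groups overlapped, because WNT4 2 and Cre 2 read below GFP 3. The difference of WNT4 from GFP was 0.82 ± 0.35 with an adjusted p of 0.366, and Cre minus GFP was 0.62 ± 0.35. The difference for WNT4 depended on single arrays: it was 0.54 without WNT4 1 and 1.19 without WNT4 2. The other probe set, 1456605_at, was dim, at 4.64 to 5.24 over the 9 arrays, and differed from GFP by 0.23 ± 0.12 for WNT4 and -0.03 ± 0.12 for Cre. The Pearson correlation of the 2 Cebpd probe sets over the 9 arrays was 0.09, so the dim one did not follow the brighter one.

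Cebpg, whose product pairs with other C/EBP proteins and ATF4, was measured by 3 probe sets. The brightest, 1425262_at, read 10.20, 9.03 and 9.68 with WNT4, 9.0, 8.90 and 9.08 with Cre and 8.93, 8.93 and 8.96 with GFP. The Cre-labelled and GFP arrays all lay between 8.90 and 9.08, and WNT4 1 and WNT4 3 stood well above them, whereas WNT4 2 fell inside the Cre-labelled range. For WNT4 against GFP the difference was 0.70 ± 0.24, or 1.62-fold, with an adjusted p of 0.29. It was 0.42 without WNT4 1 and 1.00, with an adjusted p of 0.0393, without WNT4 2. Probe set 1451639_at read 9.06, 7.79 and 7.74 with WNT4, 7.61, 7.29 and 7.16 with Cre and 6.95, 7.13 and 6.98 with GFP. These 3 groups did not overlap at all, in the order WNT4, Cre, GFP from high to low. The difference of WNT4 from GFP was 1.18 ± 0.31 there, or 2.26-fold, the largest difference among the 14 probe sets, with an adjusted p of 0.221, and Cre minus GFP was 0.33 ± 0.31. Without WNT4 1 the difference from GFP was 0.75. The dim probe set 1425261_at, at 4.64 to 5.74, differed by 0.70 ± 0.19 for WNT4 and 0.28 ± 0.19 for Cre. Each of the 3 Cebpg probe sets still averaged above GFP without WNT4 1.

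**Figure D2:**
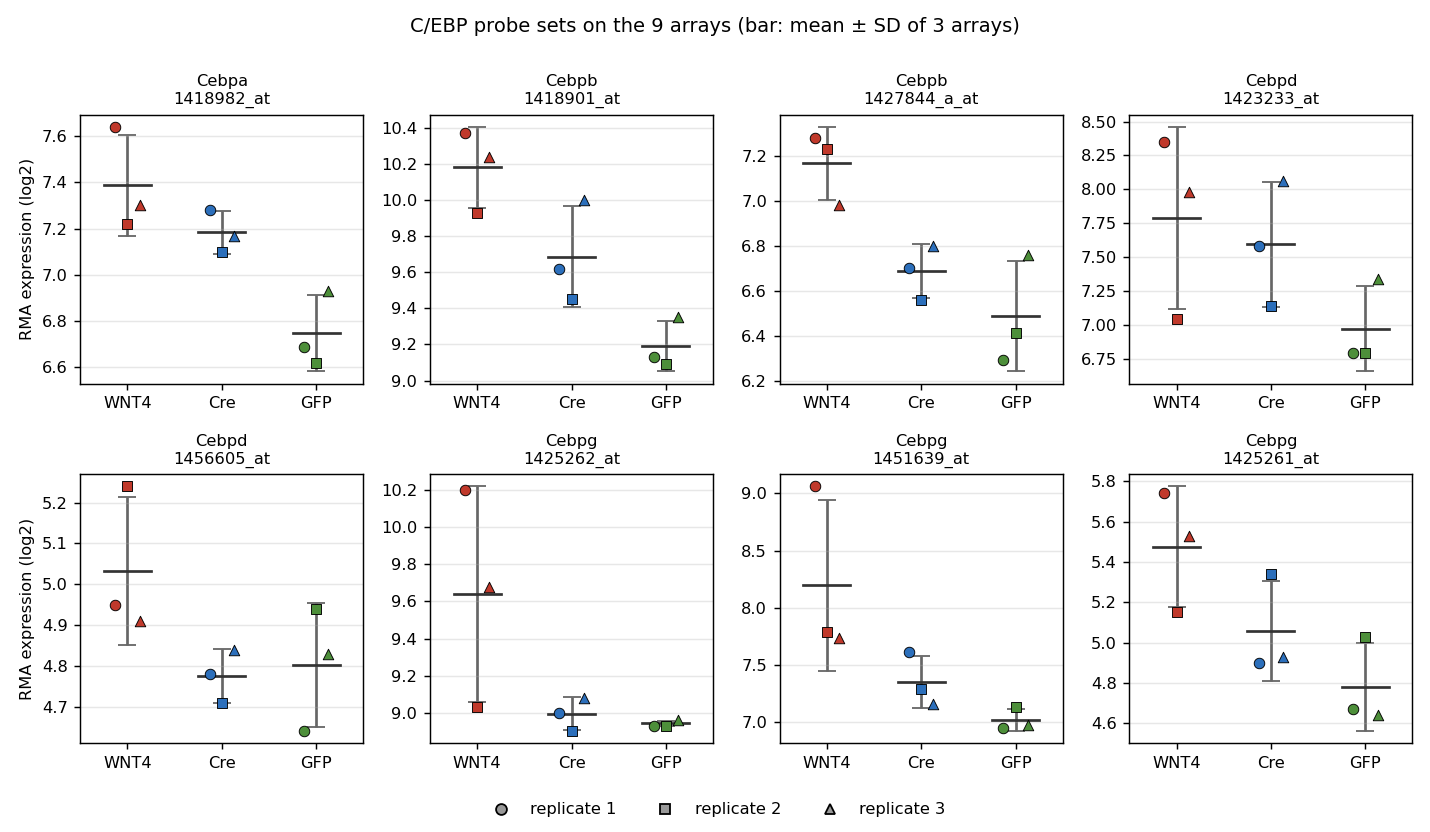
Log2 expression of the 8 C/EBP probe sets on each array, by virus (WNT4, Cre, GFP), with marker shapes for replicate numbers and bars for the mean ± SD of 3 arrays. At Cebpa and at Cebpb 1418901_at every WNT4-labelled and Cre-labelled array lies above every GFP array, whereas at Cebpg 1425262_at only WNT4 1 and WNT4 3 stand apart. Each panel has its own vertical scale.

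Runx1 encodes a DNA-binding Runt factor, and its 6 probe sets did not move together. The brightest, 1440878_at, read 9.05, 9.39 and 10.02 with WNT4, 8.39, 9.41 and 10.04 with Cre and 9.53, 8.99 and 9.39 with GFP. The 3 groups overlapped fully, and the highest values were those of WNT4 3 and Cre 3. WNT4 minus GFP was 0.18 ± 0.40 and Cre minus GFP -0.02 ± 0.40, with 95% intervals of -0.72 to 1.09 and -0.93 to 0.88. After quantile normalization WNT4 minus GFP of this probe set was -0.03, and without WNT4 3 it was -0.08. Probe set 1422864_at read 8.09, 8.24 and 8.42 with WNT4, 6.72, 7.97 and 7.88 with Cre and 7.90, 6.85 and 7.52 with GFP. All WNT4-labelled arrays were above all others there, while Cre 1 and GFP 2 were more than 0.6 below the rest of the arrays. The difference of WNT4 from GFP was 0.83 ± 0.35, or 1.78-fold, with an adjusted p of 0.369, and Cre minus GFP was 0.10 ± 0.35. Without GFP 2 the difference of WNT4 from GFP was 0.54.

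The other 4 Runx1 probe sets differed by -0.21 to 0.44 between WNT4 and GFP. At 1427650_a_at, which read 6.48, 6.80 and 6.94 with WNT4, 6.42, 6.27 and 6.58 with Cre and 6.42, 6.34 and 6.13 with GFP, WNT4 minus GFP was 0.44 ± 0.14 with an adjusted p of 0.27. Every WNT4-labelled array was above every GFP array, WNT4 1 by a narrow margin. At 1422865_at (5.85 to 6.94 over the 9 arrays) the difference was 0.16 ± 0.32, and its sign changed without WNT4 3 (-0.10) and without GFP 2 (-0.02). The probe sets 1452531_at and 1452530_a_at read lower with WNT4 than with GFP, by -0.17 ± 0.15 and -0.21 ± 0.13, and their arrays overlapped. For Cre minus GFP all 6 lay between -0.19 and 0.15. The Pearson correlations between pairs of Runx1 probe sets over the 9 arrays ran from -0.29 to 0.81. Which Runx1 transcripts each probe set detects was not examined here, and the RefSeq table gives Runx1 2 start sites. Leukocytes also express Runx1: the mean of 15 leukocyte markers was 6.20, 6.64 and 7.14 on WNT4 1, 2 and 3, 6.51, 6.66 and 7.29 on Cre 1, 2 and 3 and 6.63, 6.55 and 7.07 on GFP 1, 2 and 3, so it was highest on the arrays numbered 3 in each group. Of these markers Ptprc, the pan-leukocyte antigen CD45, read 4.34 to 5.69 and Csf1r, the macrophage growth factor receptor, 6.03 to 8.44, each highest on array 3 of every group. The same was so for Cd68, Adgre1, Fcer1g, Cd14 and Ctss. It was not so for Lyz2, Itgam, Cd52, Tyrobp, Laptm5, Spi1, Coro1a and Lcp1. At an unadjusted p under 0.05 the leukocyte list had 0 markers higher and 1 lower in WNT4 against GFP. The part of leukocyte RNA in the Runx1 values was not tested, and in bulk RNA more cells of a type cannot be told apart from more RNA per cell.

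**Figure D3:**
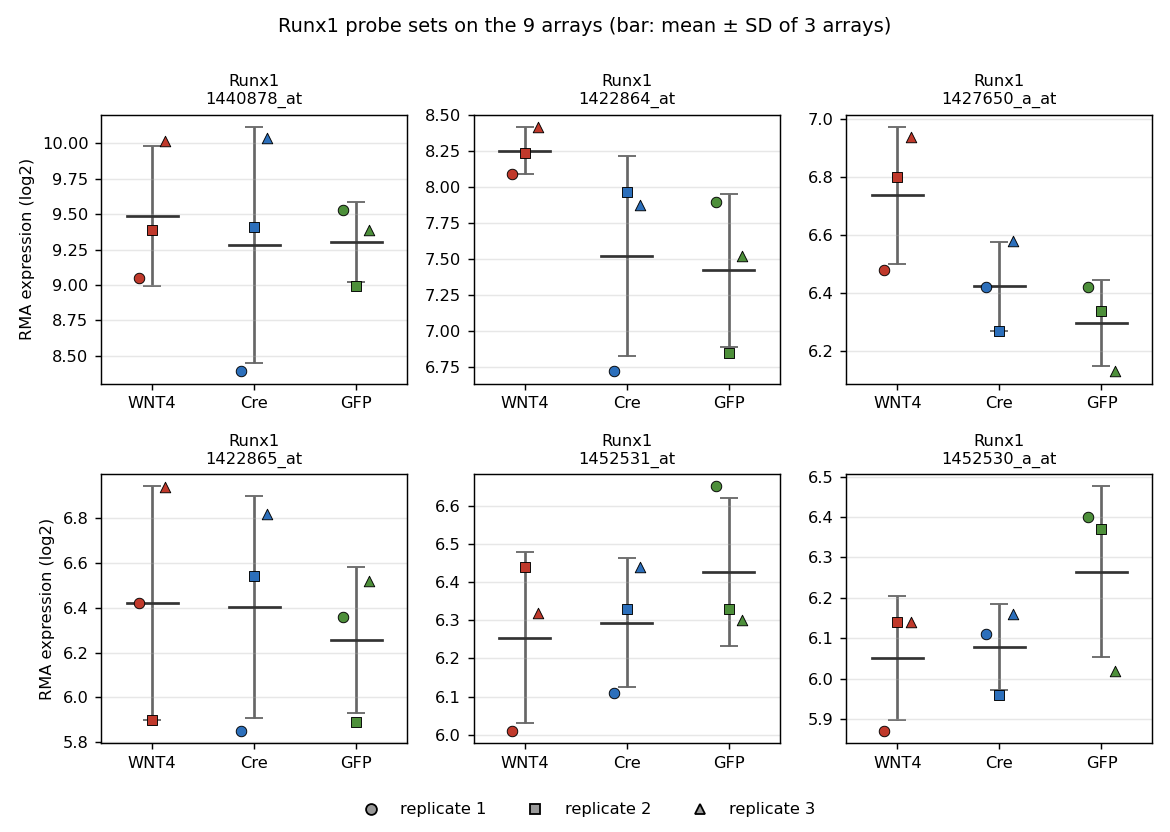
Log2 expression of the 6 Runx1 probe sets on each array, by virus (WNT4, Cre, GFP), with marker shapes for replicate numbers and bars for the mean ± SD of 3 arrays. At 1422864_at the 3 WNT4-labelled arrays (8.09 to 8.42) lie above all others, whereas at 1440878_at the highest values are those of WNT4 3 and Cre 3. Each panel has its own vertical scale.

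The direct comparison of WNT4 with Cre leaves the GFP arrays out of the difference. The difference was positive at 12 of the 14 probe sets, and none passed limma's test, in which 0 of 45037 (0%) were called. At an unadjusted p under 0.05, 4 of the 14 were higher and 0 lower, against 5.07% higher and 1.17% lower among all probe sets. The share of higher ones among all probe sets at that p was 81.3% as deposited and 49.5% after quantile normalization. It was 49.4% after centring on the 75th percentile and 82.4% after median centring. The members higher were 4 after quantile normalization (1.98% of all probe sets) and 4 after centring on the 75th percentile (2.46%). After median centring 6 were higher (4.85%). As deposited, the 4 higher members were both Cebpb probe sets, at 0.49 ± 0.17 (1418901_at) and 0.48 ± 0.14 (1427844_a_at), and the Cebpg probe sets 1425262_at (0.64 ± 0.24) and 1451639_at (0.84 ± 0.31), with adjusted p = 0.773 each. For Cebpb 1427844_a_at and Cebpg 1451639_at the arrays of the 2 groups did not overlap, as was so for Cebpd 1456605_at and Runx1 1422864_at, 4 of the 14 in all with WNT4 higher and 0 with WNT4 lower, against 5.38% and 2.85% of all probe sets. Cebpa differed by 0.20 ± 0.13, with a 95% interval of -0.10 to 0.50, and Cebpd 1423233_at by 0.20 ± 0.35, with an interval of -0.59 to 0.98. Runx1 1422864_at differed by 0.73 ± 0.35, and by 0.33 without Cre 1. The remaining Runx1 probe sets ran from -0.04 to 0.31.

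Over the 9 arrays the 4 C/EBP genes, each read from its brightest probe set, shared much of their pattern. The Pearson correlation was 0.91 between Cebpa and Cebpb, 0.86 between Cebpb and Cebpd, 0.83 between Cebpa and Cebpd, and 0.74 to 0.80 between Cebpg and the others. With the brightest Runx1 probe set the correlations were -0.05 for Cebpa, 0.28 for Cebpb, 0.19 for Cebpd and 0.08 for Cebpg. Other Runx1 probe sets gave values from -0.78 (1452530_a_at with Cebpa) to 0.68 (1427650_a_at with Cebpb). These values describe 9 arrays that share 3 viruses and 1 normalization, and carry no test. Among 16933 probe sets with 1 symbol and a mean of at least 6, the genes whose values followed each member most closely were listed as a description, since the highest of so many correlations is high by construction. For Cebpb they were Tmem229a (r = 0.99, Spearman's rho = 1.00), Tmem192 (0.98) and Gpx4 (0.98), which encodes a peroxidase that reduces lipid peroxides. Tmem229a, named for its predicted membrane protein, read 8.95, 7.77 and 8.80 with WNT4, 6.93, 6.62 and 7.93 with Cre and 5.65, 5.43 and 5.70 with GFP. Its arrays stood in exactly the order of the Cebpb arrays but over a wider range. For Cebpa the closest were Cds2, an enzyme of phospholipid synthesis (0.98), Ptpn14, a protein tyrosine phosphatase (0.98), and Zswim7 (0.97). For Cebpd they were Ppm1a, a protein phosphatase (0.96), Ipo4, an importin (0.96), and Cnn3, an actin-binding calponin (0.96). For Cebpg they were Pwp1 (0.99), Snhg16, a long noncoding RNA (0.99), and Xpot, the export receptor of tRNA (0.99). Snhg16 and Xpot had rank correlations of only 0.73 and 0.70 on the same arrays. For Runx1 they were Usp46, a deubiquitinase (0.98), Acadsb, an enzyme of branched-chain fatty acid oxidation (0.98), and Cyp4v3, a cytochrome P450 (0.97).

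Genes that pair with, modify or restrain C/EBP and RUNX proteins were read as a list of 21, of which 19 were measured, each from its brightest probe set. In WNT4 against GFP 0 of them passed limma's test (0.0275% of genes), 7 of 19 were higher and 0 lower at an unadjusted p under 0.05 (12.6% higher and 4.46% lower among 18193 genes), and the median difference was 0.22, against 0.02 over all genes. Ddit3, the stress-induced C/EBP family member CHOP, read 12.31, 9.85 and 10.08 with WNT4, 8.25, 8.33 and 8.65 with Cre and 8.34, 7.75 and 8.07 with GFP. All WNT4-labelled arrays lay above all others by more than 1, and WNT4 1 was the highest by more than 2. For WNT4 against GFP the difference was 2.69 ± 0.55, or 6.46-fold, with an adjusted p of 0.171, and it was 1.91 without WNT4 1. Atf4, a stress-induced factor that pairs with C/EBP-gamma, read 13.19, 11.53 and 12.12 with WNT4, 11.62, 10.96 and 11.28 with Cre and 10.94, 11.47 and 11.27 with GFP, so that WNT4 2 fell among the other arrays. Its WNT4 minus GFP was 1.06 ± 0.37, and 0.60 without WNT4 1. For Atf4 this difference was 0.69 after quantile normalization and 0.53 when all its probe sets were averaged. Trib3, a pseudokinase that binds ATF4, differed by 2.45 ± 0.63, and Nfil3, a leucine zipper repressor, by 1.28 ± 0.26. On WNT4 1, 2 and 3 the values of Cebpg 1425262_at, Ddit3, Atf4 and Trib3 were all highest on WNT4 1. Without WNT4 2 the differences of Ddit3 (3.14, adjusted p = 0.0442), Trib3 (3.16, adjusted p = 0.0399) and Nfil3 (1.51, adjusted p = 0.0403) passed. That array read lowest of the WNT4-labelled arrays for each of these genes. Leaving it out raised the calls over all probe sets from 7 to 748, whereas without WNT4 1 or without WNT4 3 there were 0.

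Cbfb encodes CBF-beta, the obligate partner of the RUNX proteins. It read 12.09, 11.67 and 11.98 with WNT4, 11.47, 11.80 and 11.50 with Cre and 11.69, 11.66 and 11.74 with GFP, so the groups overlapped. The difference of WNT4 from GFP was 0.22 ± 0.13, or -0.14 after quantile normalization, and Cre minus GFP was -0.11 ± 0.13. Tle3, a Groucho corepressor that RUNX proteins recruit, read 8.80, 8.78 and 8.88 with WNT4, 8.62, 8.62 and 8.76 with Cre and 8.41, 8.30 and 8.40 with GFP. The 3 groups did not overlap, although WNT4 minus GFP was only 0.45 ± 0.08 (adjusted p = 0.171) and Cre minus GFP 0.30 ± 0.08. In Cre against GFP Tle3 was the 1 of 19 that was higher at an unadjusted p under 0.05 (1.24% of all genes), 0 were lower (1.29%), and the median of the list was -0.0018, against -0.01 over all genes. Nfil3 (0.53 ± 0.26), Trib2, a pseudokinase that directs C/EBP-alpha to degradation (-0.50 ± 0.26), and Cop1, the ubiquitin ligase it works with (-0.25 ± 0.15), had the next lowest p. Ddit3 differed there by 0.36 ± 0.55 and Atf4 by 0.06 ± 0.37, with the sign of Atf4 turning under quantile normalization. In WNT4 against Cre 0 of 19 were called, 6 were higher and 0 lower at an unadjusted p under 0.05 (6.96% and 1.19% of all genes), and the median was 0.32.

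**Figure D4:**
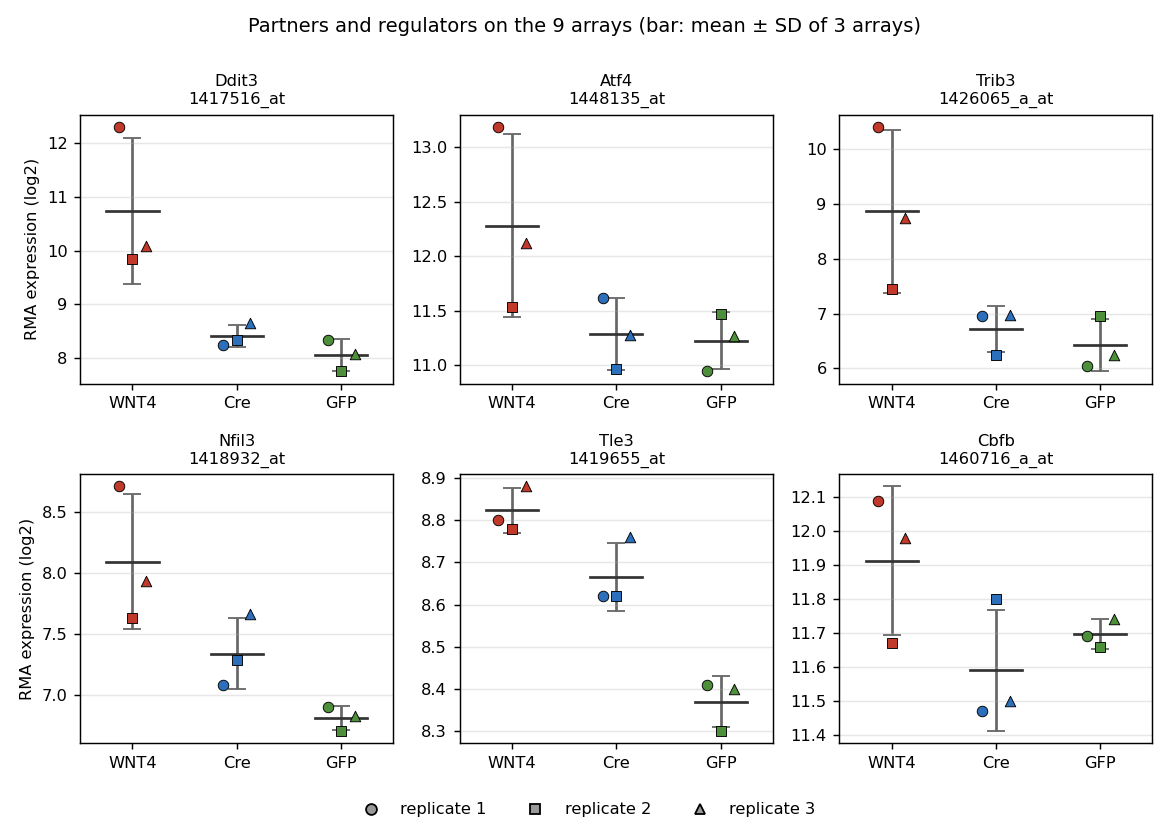
Log2 expression of Ddit3, Atf4, Trib3, Nfil3, Tle3 and Cbfb on each array, by virus (WNT4, Cre, GFP), with marker shapes for replicate numbers and bars for the mean ± SD of 3 arrays. Ddit3 and Trib3 are highest on WNT4 1 (12.31 and 10.41), and the 3 groups of Tle3 do not overlap. Each panel has its own vertical scale.

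The RNA of 19 measured genes of luteinising hormone, EGF-like factor and ERK signalling was read, of 23 listed. These genes belong to the signal that reaches C/EBP-beta in the ovary, and the activity of their proteins was not measured. In WNT4 against GFP 0 passed limma's test, 3 were higher and 0 lower at an unadjusted p under 0.05 (12.6% and 4.46% of all genes), and the median difference was 0.17. Dusp1, a phosphatase that switches off MAP kinases, differed by 0.80 ± 0.22 (adjusted p = 0.231), Prkaca, the catalytic subunit of protein kinase A, by 0.46 ± 0.19 (0.23 without WNT4 1), and Map2k1, the kinase MEK1 that activates ERK, by 0.96 ± 0.41 (0.61 without WNT4 3). Map2k2, its partner MEK2, differed by 0.22 ± 0.10, and by -0.02 when all its probe sets were averaged. Map2k1 read 11.42, 10.59 and 12.07 with WNT4, 10.59, 10.59 and 11.84 with Cre and 10.40, 10.45 and 10.34 with GFP. The arrays WNT4 1, WNT4 3 and Cre 3 stood above the rest, and no GFP array reached the other groups. In Cre against GFP 0 passed, 0 were higher and 1 lower at an unadjusted p under 0.05 (1.24% and 1.29% of all genes). That gene was Egr1, an immediate early factor downstream of ERK (-0.40 ± 0.17), and Dusp1 (0.36 ± 0.22), Pde4d, a cAMP phosphodiesterase (0.25 ± 0.16), and Map2k1 (0.61 ± 0.41) had the next lowest p. The median was 0.04. In WNT4 against Cre 0 were called, 0 were higher and 0 lower at an unadjusted p under 0.05 (6.96% and 1.19% of all genes), and the median was 0.12.

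Ovulation and luteal genes linked to C/EBP or RUNX factors were read as a list of 24, of which 22 were measured. The list was written with earlier results of these data known, and its members are not independent evidence of a direction. In WNT4 against GFP the median difference was 0.68, and 21 of 22 differences were positive. Cdkn1a, the cell cycle inhibitor p21 of luteal cells and a p53 target, was the only one called over all probe sets: it rose 2.92-fold (1.55 ± 0.16, adjusted p = 0.0341), but the call was lost without any single array other than WNT4 2 (adjusted p = 0.0639 to 0.269) and without the arrays numbered 3 (0.355). Of the 22, 10 were higher and 0 lower at an unadjusted p under 0.05 (12.6% and 4.46% of all genes). Parm1, a mucin-like membrane protein, differed by 0.97 ± 0.12 (adjusted p = 0.0691). Scarb1, the receptor for high-density lipoprotein cholesterol, differed by 1.10 ± 0.24, and Star, which carries cholesterol into mitochondria and is a known C/EBP-beta target, by 2.05 ± 0.50. Star read 10.24, 8.96 and 8.25 with WNT4, 7.75, 8.22 and 7.81 with Cre and 7.91, 6.45 and 6.94 with GFP, so WNT4 1 was again the highest. In Cre against GFP 0 of 22 were called, 2 were higher and 0 lower at an unadjusted p under 0.05 (1.24% and 1.29% of all genes), and the median was 0.31. Those 2 were Cdkn1a (0.80 ± 0.16) and Parm1 (0.35 ± 0.12), followed by Akr1c18, which breaks down progesterone (1.03 ± 0.49), and Rgcc, a cell cycle regulator and RUNX target of the rat ovary (0.33 ± 0.20). In WNT4 against Cre 0 were called, 6 were higher and 0 lower at an unadjusted p under 0.05 (6.96% and 1.19% of all genes), and the median was 0.61.

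For WNT4 minus GFP the 8 C/EBP differences stayed positive when each array was left out in turn. They ran from 0.89 to 1.11 for Cebpb 1418901_at and from 0.52 to 0.73 for Cebpa, against 0.42 to 1.00 for Cebpg 1425262_at and 0.54 to 1.19 for Cebpd 1423233_at. Without WNT4 2 the test called 748 probe sets in all, and Cebpb 1418901_at (1.11, adjusted p = 0.0399) and Cebpg 1425262_at were among them. No other single array left out gave a call of a member. Under quantile normalization the 4 differences were 0.76 for Cebpb, 0.55 for Cebpa, 0.48 for Cebpg and 0.70 for Cebpd.

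**Figure D5:**
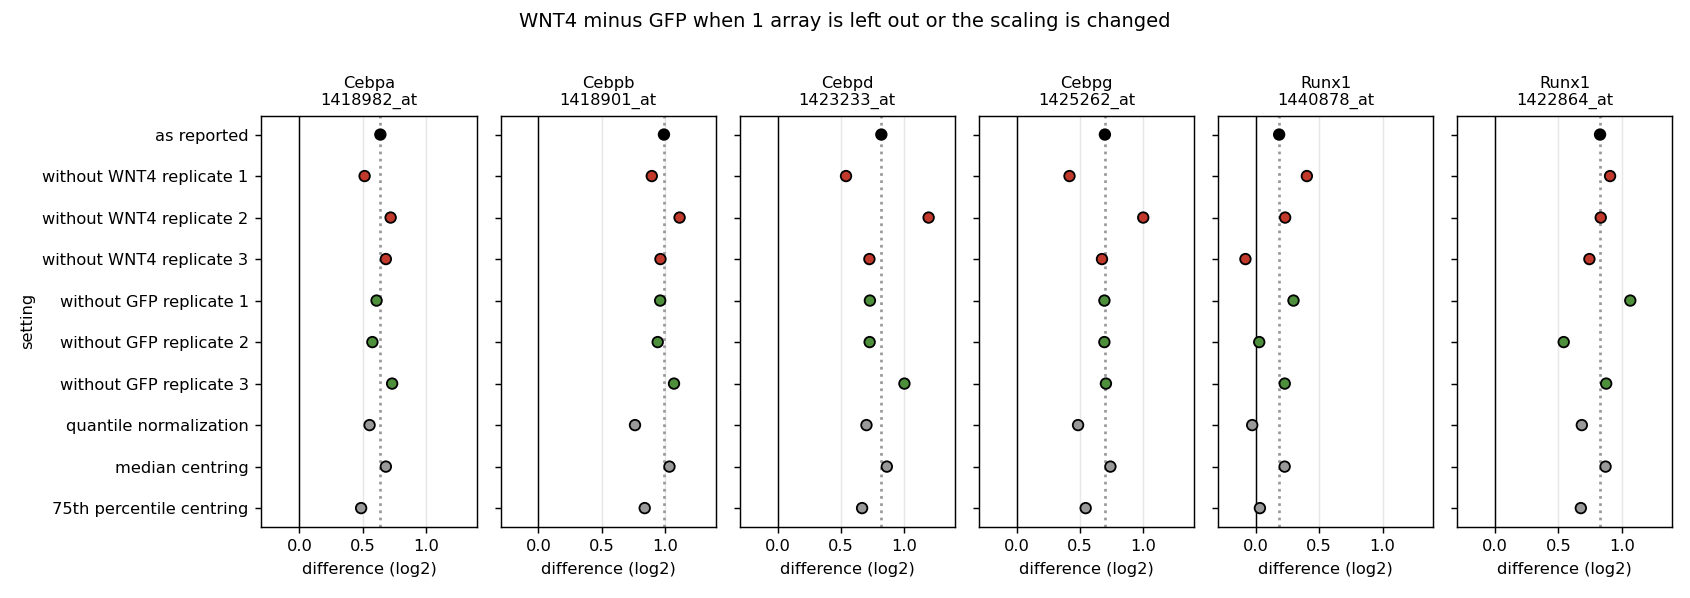
WNT4 minus GFP on the log2 scale for 6 probe sets of Cebpa, Cebpb, Cebpd, Cebpg and Runx1, as reported (black, dotted line), without each WNT4-labelled array (red), without each GFP array (green) and under 3 other scalings (grey). Cebpb stays between 0.76 and 1.11, while Runx1 1440878_at crosses 0 without WNT4 3 (-0.08) and after quantile normalization (-0.03).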

How the data were processed

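RNA of granulosa cells from 3 virus groups of 3 arrays was hybridised to Affymetrix mouse expression arrays. The deposited log2 values came from RMA, a method of background correction, normalization and summary per probe set, as the submitters' processing notes name it without a version. The upper quartiles of the deposited arrays still ran from 7.68 to 8.00, so the arrays do not share 1 distribution, and a further quantile normalization was tried as an alternative. The log2 scale was read from the values (3.46 to 15.3). Of 45101 probe sets, 64 controls were left out. Symbols came from the platform annotation (34945 probe sets with 1 symbol, 932 with several, 9160 unnamed), updated by Entrez ID through a RefSeq table (GRCm38.p6). Promoters are RefSeq sequences of that build, found for 4 of the 5 measured genes, with Cebpd not among them.

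All 9 arrays entered 1 limma model (version 3.58.1, R 4.3.3; lmFit and eBayes with 6 residual and 2.8 prior degrees of freedom). Its two-sided p-values were adjusted by Benjamini and Hochberg's method within each comparison, over 45037 probe sets, and called under 0.05. The procedure was tested on simulated data. An exact permutation test of 3 arrays against 3 cannot go below p = 0.1. Precision is limited by having 3 arrays per group. The members, the 8 lists and the tests were chosen with earlier results of these data known. Named genes were all members, the 4 of each non-marker list with the lowest p in each comparison with GFP, Cbfb, Ddit3, Atf4, and the 3 genes most correlated with each member; others, such as the markers given with values, were chosen after their values were seen. The marker lists were used by list mean and counts.

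Replicate numbers are not said to mark a shared animal or day. Deviations of same-numbered arrays from their group means correlated at 0.21, 0.24 and 0.77 between WNT4 and Cre, at -0.08, 0.01 and 0.35 between WNT4 and GFP and at -0.04, -0.31 and 0.31 between Cre and GFP. All same-numbered values exceeded 0.1, the rule set for pairing, for WNT4 against Cre only. Even there WNT4 1 correlated more with Cre 2 (0.32), and WNT4 2 more with Cre 1 (0.28), so the data did not settle a pairing by number. The reported tests used no pairing, and the replicate number entered only as an alternative setting.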

Additional observations from a re-analysis of the deposited data

How the results depend on the processing

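The number of member probe sets called was 0 in each of the 3 comparisons as reported and under each alternative setting that keeps all 3 arrays of a group, and also without the 3 arrays numbered 3. With the replicate number as a block it was 0 in each comparison, and the number at an unadjusted p under 0.05 was 8, 3 and 4 for WNT4 against GFP, Cre against GFP and WNT4 against Cre, against 9, 2 and 4 without the block. All of these members were higher. Over all probe sets 10.7%, 1.75% and 5.91% were higher at that p with the block, against 9.12%, 1.01% and 5.07% without it. Leaving out 1 array at a time gave 0 to 2 called members in WNT4 against GFP, and 0 in the other comparisons. Cdkn1a lost its call with the block (adjusted p = 0.0682) and after quantile normalization (1.11, adjusted p = 0.0697), among others, and Parm1 gained one with 1 probe set per gene (adjusted p = 0.0497). Over all probe sets, WNT4 against GFP had 7 calls as reported, 10 with the block, 0 with the arrays of the groups compared alone, 3 after quantile normalization, 17 after centring on the 75th percentile, 15 without dim probe sets (mean under 6), 1 with an intensity trend, 0 without the arrays numbered 3, 2 after averaging the probe sets of a gene, 17 with 1 probe set per gene, and 0 to 748 with 1 array left out. Cre against GFP had 0 to 1 with 1 array left out. Centring on the 75th percentile moved the median of all WNT4 minus GFP differences to -0.15.

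Differences near 0 changed sign. For Cre minus GFP, Cebpd 1456605_at became 0.0087 after quantile normalization and 0.0048 after median centring, Runx1 1440878_at 0.0095 after median centring, 0.085 with array weights and 0.0047 as the mean of its probe sets, and without the arrays numbered 3 Runx1 1422864_at became -0.032 and 1427650_a_at -0.034. Atf4 became -0.0066 after quantile normalization and -0.029 with array weights. For WNT4 minus GFP, Runx1 1440878_at became -0.030 after quantile normalization and -0.039 without the arrays numbered 3, Cbfb -0.14 after quantile normalization and Map2k2 -0.022 as the mean of its probe sets. For WNT4 minus Cre, Runx1 1422865_at became -0.0049 after quantile normalization, -0.086 after centring on the 75th percentile and -0.037 without the arrays numbered 3, where 1452531_at became 0.00096. With 1 array left out, WNT4 minus GFP ran from -0.10 to 0.42 for Runx1 1422865_at and from -0.083 to 0.40 for 1440878_at. Cre minus GFP ran from -0.11 to 0.042 for Cebpd 1456605_at, from -0.19 to 0.50 for Runx1 1422864_at, from -0.061 to 0.42 for 1422865_at, from -0.40 to 0.42 for 1440878_at and from -0.11 to 0.23 for Atf4. WNT4 minus Cre ran from -0.082 to 0.57 for Cebpd 1423233_at and, for Runx1, from -0.26 to 0.28 (1422865_at), -0.24 to 0.58 (1440878_at), -0.086 to 0.062 (1452530_a_at) and -0.13 to 0.085 (1452531_at). The cause of these changes was not tested.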
